A study of Mus musculus with 10 samples.

Results

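The non-muscle actin and myosin cytoskeleton was followed through 10 ubiquitous genes, Actb, Actg1, Myh9, Myh10, Myl6, Myl12a, Myl12b, Tmsb4x, Cfl1 and Pfn1, chosen by symbol from the 24059 genes of the lung count table. All 10 symbols were found, 9 had at least 1 count in some mouse, and 7 passed the filter on low counts that left 2438 genes for testing. Lungs came from female C57Bl/6 mice that began the diets at 6 weeks of age and were 14 weeks old at the end. The FO group (5 mice) ate a semipurified feed with 19% fat by weight, of which 91% was menhaden fish oil and 9% corn oil, and the CO group (5 mice) ate feed with as much fat, of which coconut oil supplied 78% (saturated), olive oil 13% (monounsaturated) and corn oil 9% (polyunsaturated) by GEO's design text, from which the shares in the study's methods differ slightly. Both diets were high in fat and contained cholesterol, no group on ordinary feed was analysed here, and all lungs were flushed with PBS after airway reactivity had been measured.

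Actin monomers join into filaments that carry the shape of the cell, and non-muscle myosin II pulls on them. Each myosin II molecule pairs heavy chains (Myh9, Myh10) with an essential light chain (Myl6) and a regulatory light chain (Myl12a, Myl12b), whose phosphorylation switches the motor on. Monomers are held in reserve by thymosin beta 4 (Tmsb4x), fed to growing filaments by profilin (Pfn1) and returned from old filaments by cofilin (Cfl1). In lung these proteins serve endothelial barriers, epithelium and moving leukocytes, while airway and vascular smooth muscle add their own actin (Acta2) and myosin (Myh11).

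Depth was low and uneven. The total per mouse was 229766 to 1124963 counted reads, of which Rn45s, the ribosomal RNA precursor, took from 21.8% to 87.0%, so that from 45177 to 473254 counts remained for all other genes. FO mouse 2 and CO mouse 5 stood apart, since the nuclear RNA Malat1 made up 8.53% and 6.15% of their counts outside Rn45s, against 0.135% to 1.05% in the other 8 mice. The libraries had been made with either of 2 kinds of kit, and which mouse had which is not given in the sources used here. All 8 lung epithelial marker genes were counted, among them Sftpc and Scgb1a1, with a summed level of 2720 to 4400 CPM (counts relative to the whole library, Rn45s included, after TMM scaling in edgeR) in the FO group and 2330 to 3950 CPM in the CO group. Sums over a list of genes are from a fit of all genes with any count. The CPM of single genes, Pfn1 apart, are from the fit of genes past the filter, relative to the counts of those genes. The 2 scales differ.

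The members include pairs of similar sequence, and a counter can split or discard reads from stretches that are identical. The beginnings of the coding sequences of both actins and of both regulatory light chains are shown to compare these pairs. Bases 1 to 150 from the start codon are given from the GENCODE M21 transcripts of GRCm38, with capitals at positions where the members of a pair differ.
Actb: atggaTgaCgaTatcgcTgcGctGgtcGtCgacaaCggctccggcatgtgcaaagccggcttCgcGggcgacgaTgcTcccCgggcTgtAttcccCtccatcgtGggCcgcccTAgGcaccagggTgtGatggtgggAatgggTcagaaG
Actg1: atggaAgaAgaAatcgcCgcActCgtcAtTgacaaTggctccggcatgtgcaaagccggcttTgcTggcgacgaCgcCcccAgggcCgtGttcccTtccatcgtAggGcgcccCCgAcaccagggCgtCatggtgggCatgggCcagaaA
Myl12a: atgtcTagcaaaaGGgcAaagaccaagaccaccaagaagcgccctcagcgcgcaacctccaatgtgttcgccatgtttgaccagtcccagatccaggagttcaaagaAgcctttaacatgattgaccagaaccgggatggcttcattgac
Myl12b: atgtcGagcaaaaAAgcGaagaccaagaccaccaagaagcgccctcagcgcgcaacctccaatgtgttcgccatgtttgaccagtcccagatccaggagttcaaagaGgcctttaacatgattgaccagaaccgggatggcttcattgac
In these stretches the actins differed at 27 bases and the light chains at 5. Over the whole coding sequence Actb and Actg1 were identical at 88.6% of 1125 bases, with a longest identical run of 62 bases, and Myl12a and Myl12b at 96.5% of 516 bases, with a longest run of 102 bases. Of the windows of 50 bases along the coding sequence, 2.79% were identical between the actins and 37.26% between the light chains. Myl12b (chromosome 17, 70973133 to 70990890) and Myl12a (70993656 to 71002878) lie on the same strand with 2765 bases between them.

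Of the 10 members, Myh9 and Actg1 had almost no counts although both are known as widely expressed genes. Myh9, the heavy chain of myosin IIA, spans 77760587 to 77842175 on chromosome 15 and was listed at 0 in all 10 mice. Its sister Myh10, the heavy chain of myosin IIB on chromosome 11 from 68691559 to 68816632, had from 26 to 269 counts per mouse. For Myh9 a count of 0 allows a level of up to 6.34 CPM, taken over the counts outside Rn45s and so on a larger scale than the CPM above, in the library with most such counts and 66.4 CPM in that with fewest, taking 3 counts as the floor and covering counting error only. Actg1, the gamma actin gene on chromosome 11 from 120345690 to 120348542, had 3 counts in FO mouse 2, 2 in CO mouse 4, 3 in CO mouse 5 and 0 in the other 7 mice. All its values were thus at or under the floor of 3 counts, and no fold change is given for either gene. Other genes were listed in the same way. Of 10 widely expressed genes looked up after Myh9 had been seen at 0, 5 (Tuba1a, Tuba1b, Ubb, Eno1 and Plec) were also listed at 0 in every mouse, and Gapdh had at most 8 counts. Only the listing at 0 is therefore reported for Myh9, and its cause was not tested.

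Sharing of transcript sequence was measured to set beside these counts. For each member, all windows of 50 bases of its chosen transcript were searched for, on either strand, in the annotated transcripts of every other gene. Actg1 shared 56.7% of its windows, most with the processed pseudogene Gm12715 (51.1%), and Myl6 shared 53.3%, most with the processed pseudogene Gm5526 (41.9%). Myl6 was nevertheless counted in every mouse, with 1257 counts in all. Myh9 shared 1.12% of its windows and had 0 counts, while Myh10 shared 0.94% and had 1042 counts. Tmsb4x and Pfn1 shared none of their windows, Actb shared 14.2%, Cfl1 23.0%, Myl12a 29.6% (nearly all with Myl12b) and Myl12b 11.4%. In the RefSeq annotation the span of Pfn1 overlaps Eno3, that of Actb Gm38733, that of Actg1 the microRNA gene Mir6935 and that of Myh9 Gm22107, so reads there could be lost or shared as well. The part of any of these in the counts was not tested.

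**Figure D1:**
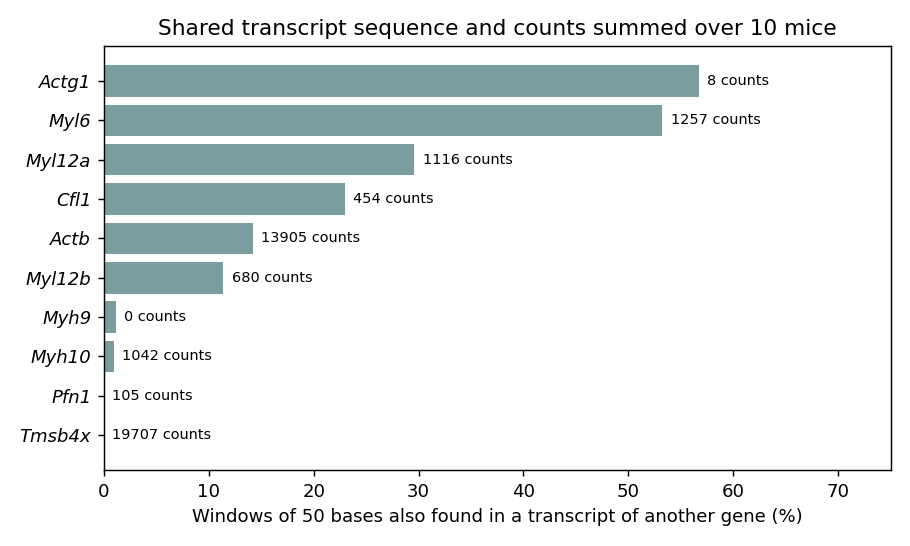
Horizontal bars give, for each of the 10 genes, the percent of its 50-base transcript windows that also occur in an annotated transcript of another gene, and the text at each bar gives its counts summed over the 10 mice. Myh9, with 1.12% shared windows, had 0 counts, whereas Myl6, with 53.3%, had 1257.

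Together the members held 38274 counts, and Tmsb4x (51.5%) and Actb (36.3%) made up 87.8% of these. Their summed share of the counts outside Rn45s averaged 2.25% ± 0.501 under FO, against 2.12% ± 0.532 under CO (SD over 5 mice per diet), a difference of 0.123 percentage points that was smaller than the spread between mice. It had no stable sign, at -0.044 without CO mouse 5, 0.003 without FO mouse 5, 0.325 without FO mouse 2, 0.304 without CO mouse 4 and -0.256 as a share of all counts, Rn45s included. Outside Rn45s, the lowest shares were 1.44% in FO mouse 2 (95% exact Clopper-Pearson interval 1.407% to 1.475%) and 1.46% in CO mouse 5 (1.409% to 1.502%), and the highest was 2.85% in CO mouse 4 (2.785% to 2.909%). The mice with the most Malat1 thus had the lowest summed share outside Rn45s in both diets, and the other 8 mice ranged from 1.88% to 2.85%. This did not hold for the share of all counts, Rn45s included. There FO mouse 2 had 0.606% beside 0.322% in FO mouse 3, and CO mouse 5 had 0.703% beside 0.299% in CO mouse 2. CO mouse 4 was also the library with the least Rn45s. In lung as a whole, fewer cells of a type and less RNA per cell cannot be told apart.

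Relative to transcript length, the members spanned a wide range of levels. Over all 10 mice Tmsb4x had 4481 ± 1031 CPM per kb of transcript (SD), Actb 1241 ± 196 and Myl6 339 ± 87.4, and these 3 kept this order in 10 of 10 mice. Below them stood Myl12a with 90.0 ± 46.6 CPM per kb and Myl12b with 57.7 ± 20.8. Myl12a was above Myl12b in 8 of 10 mice, so these neighbours did not differ in level beyond their spread. Cfl1 had 32.9 ± 7.11 CPM per kb and Myh10 22.9 ± 10.4, with Cfl1 higher in 7 of 10 mice, again within their spread. Pfn1 came last of the genes above the floor, with 19.99 ± 9.84 CPM per kb, taken from the fit of all genes with any count. The monomer-holding thymosin thus stood above beta actin (Actb), and the essential light chain above both regulatory ones, on this scale. The scale depends on the transcript chosen for each gene and makes no allowance for reads lost over shared sequence. Gamma actin (Actg1), at or under the floor, is not part of this comparison.

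The comparison of FO with CO asked whether the lung transcriptome differed with the kind of dietary fat. None of the 7 members tested was higher or lower in the FO group at an unadjusted p-value under 0.05, the threshold the study used (edgeR quasi-likelihood test), a threshold that 2.91% of all 2438 genes passed, 1.68% higher and 1.23% lower. After Benjamini-Hochberg adjustment 0.0% of all genes passed in edgeR, where 71 had an unadjusted p-value under 0.05, and 1 gene passed in DESeq2, where 62 did. DESeq2 called 0 members. The groups overlapped for each of the 7 members, as they did for all but 0.41% of genes. The median log2 fold change of the 7 members was -0.11, with 2 values above and 5 below 0 and none larger than 0.25 in size, beside a median of 0.00 over all genes tested. Scaling by library size alone, which counts Rn45s in full, shifted the median of all genes to -0.55, and Actb and Tmsb4x, the 2 members above 0, then stood at -0.52 and -0.62.

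Actb, beta actin, lies on chromosome 5 from 142903115 to 142906754. Its level in FO mice 1 to 5 was 2680, 2117, 2574, 2125 and 2927 CPM, and in CO mice 1 to 5 it was 2519, 2003, 2390, 2750 and 1742 CPM. The highest value was in the FO group and the lowest in the CO group, but only 3 of 5 FO mice lay above the CO median. The group means were 2485 ± 356 and 2281 ± 405 CPM (SD, n = 5), a log2 fold change of 0.12 (standard error 0.24, 95% interval -0.39 to 0.63, with an edgeR adjusted p = 0.999). Actb was the steadiest member, with a coefficient of variation of 15.8% over the 10 mice, where counting alone would give 3.51%.

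Among the proteins that handle monomers, Tmsb4x, on chromosome X from 167207093 to 167209315, was the most abundant member. FO mice 1 to 5 had 3750, 2484, 3890, 3238 and 4502 CPM, and CO mice 1 to 5 had 3848, 2823, 2975, 4570 and 2335 CPM. Lowest in each diet were FO mouse 2 and CO mouse 5, the libraries rich in Malat1. The means were 3573 ± 757 CPM (FO) and 3310 ± 891 CPM (CO), a log2 fold change of 0.11 (standard error 0.28, 95% interval -0.47 to 0.69).

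Cfl1, on chromosome 19 from 5490455 to 5495201, encodes the non-muscle cofilin. Its level was 88.6, 52.7, 77.4, 87.7 and 78.6 CPM in FO mice 1 to 5 and 93.0, 63.9, 70.1, 105.0 and 56.4 CPM in CO mice 1 to 5. Again FO mouse 2 and CO mouse 5 were lowest in their groups, and the ranges overlapped almost fully. The log2 fold change was -0.02 (standard error 0.26, 95% interval -0.56 to 0.51), the smallest in size among the members, and its sign turned without FO mouse 2 (0.12), CO mouse 1 (0.01) or CO mouse 4 (0.17). With from 12 to 100 counts per mouse, its coefficient of variation of 21.6% was close to the 19.6% that counting alone would give.

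Pfn1, on chromosome 11 from 70651850 to 70654644, did not pass the filter on low counts. FO mice 1 to 5 had 17, 29, 6, 14 and 5 counts, and CO mice 1 to 5 had 5, 1, 6, 19 and 3 counts. Scaled to depth, the FO mice averaged 20.96 ± 5.82 CPM and the CO mice 13.46 ± 9.62 CPM (SD, n = 5). All 5 FO mice lay above the CO median, while CO mice 1 and 4 lay within the FO range. When edgeR was fitted to all 14161 genes that had a count, where 4.15% of genes had an unadjusted p-value under 0.05, its log2 fold change was 0.64 (standard error 0.46, 95% interval -0.26 to 1.53, with an edgeR adjusted p = 0.905). Counting error alone would give a coefficient of variation of 47.8%, and 49.2% was observed. The value for counting error rests in large part on CO mouse 2, with its 1 count. The interval of the fold change included 0, and how large a difference this depth could show was not tested.

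**Figure D2:**
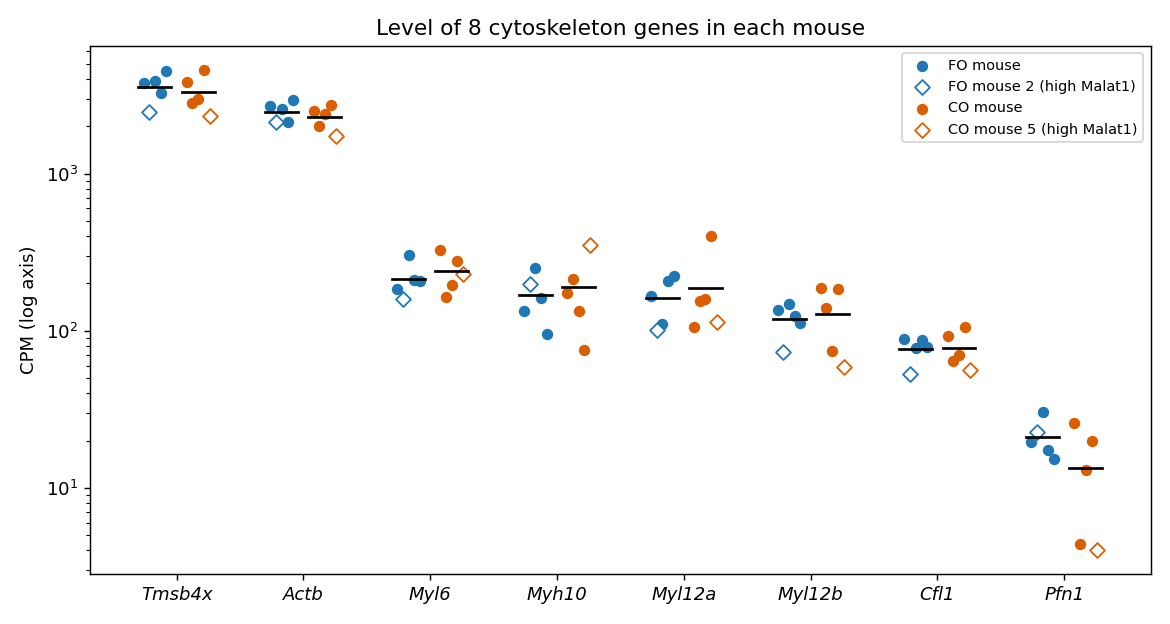
Points give the CPM (log axis) of 8 members in each FO and CO mouse, horizontal lines the group means, and open diamonds the libraries rich in Malat1, FO mouse 2 and CO mouse 5. The groups overlap for all 8 genes, and the diamonds are the lowest points of their groups for Tmsb4x, Actb, Cfl1 and Myl12b.

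Of the myosin II genes, Myh10 had the widest range among the 7 tested members, with 4.67 times as much in the highest mouse as in the lowest. Its level was 133.5, 198.7, 251.6, 160.6 and 94.96 CPM in FO mice 1 to 5 and 172.8, 213.1, 133.6, 75.6 and 353.1 CPM in CO mice 1 to 5. The highest value was that of CO mouse 5 and the lowest that of CO mouse 4, so the CO group spanned the whole FO range. The means were 168 ± 60.2 CPM (FO) and 190 ± 105 CPM (CO), a log2 fold change of -0.20 (standard error 0.35, 95% interval -0.92 to 0.53). Without FO mouse 2 and CO mouse 5 it was 0.14, and without CO mouse 5 alone 0.22, so its sign rested on the latter library.

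Myl6, the essential light chain, lies on chromosome 10 from 128490860 to 128494145. FO mice 1 to 5 had 183.0, 159.0, 303.2, 210.0 and 206.3 CPM, and CO mice 1 to 5 had 325.6, 165.1, 195.0, 279.2 and 229.7 CPM. Only 1 of 5 FO mice lay above the CO median, yet the ranges covered each other almost fully. Its log2 fold change of -0.19 had a 95% interval from -0.69 to 0.31, and it kept its sign in all 20 alternative fits, none of which passed the threshold.

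Myl12a, a regulatory light chain, had 166.9, 100.9, 109.7, 206.3 and 222.7 CPM in FO mice 1 to 5 and 106.3, 154.5, 159.9, 401.0 and 114.2 CPM in CO mice 1 to 5. CO mouse 4 stood far above all others. The means were 161 ± 55.1 CPM (FO) and 187 ± 122 CPM (CO), and the log2 fold change was -0.25 (standard error 0.34, 95% interval -0.97 to 0.46). Without CO mouse 4 it was 0.29, which turned its direction.

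Myl12b, the other regulatory light chain, had 134.6, 73.4, 148.4, 124.8 and 111.3 CPM in FO mice 1 to 5 and 186.1, 138.5, 74.5, 184.8 and 59.1 CPM in CO mice 1 to 5. The CO mice reached both further up and further down than the FO mice. The means were 118.5 ± 28.6 CPM (FO) and 128.6 ± 59.8 CPM (CO), a log2 fold change of -0.11 (standard error 0.32, 95% interval -0.78 to 0.56). Its value without CO mouse 4 was 0.14. It was 0.05 without FO mouse 2 and 0.01 without CO mouse 1.

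Because Myl12a and Myl12b could exchange reads, their sum and their ratio were compared too. The sum ran from 174 to 334 CPM in the FO group and from 173 to 586 CPM in the CO group (two-sided exact permutation test, p = 0.794, n = 5). The log2 ratio of Myl12a to Myl12b counts within a mouse ran from -0.43 (mouse 3) to 0.99 (mouse 5) in the FO group and from -0.79 (mouse 1) to 1.12 (mouse 4) in the CO group. Only FO mouse 3 and CO mouse 1 had more Myl12b than Myl12a. The ratio differed between the diets by -0.09 (standard error 0.44; two-sided exact permutation p = 0.833, adjusted p = 0.833 over the 2 ratios tested), less than the spread between mice.

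**Figure D3:**
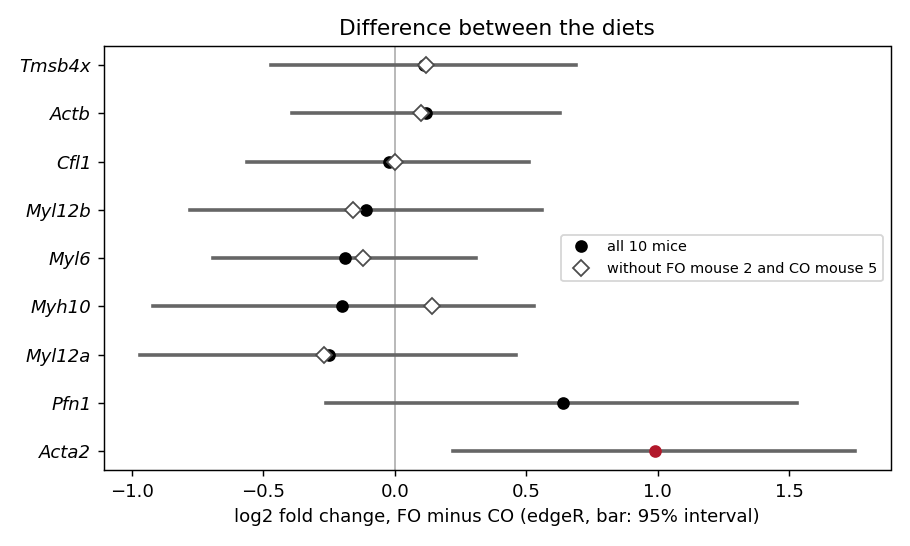
Filled points give the log2 fold change of FO against CO in edgeR for 8 members and Acta2, bars the 95% interval, and open diamonds the value without FO mouse 2 and CO mouse 5 where the gene could be tested. All 8 intervals of members include 0, that of Acta2 runs from 0.22 to 1.75, and Myh10 moves from -0.20 to 0.14 without those libraries.

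The libraries rich in Malat1 were set against the other 8 mice for each of the 7 tested members. Actb was at 2117 and 1742 CPM in these mice, against 2003 to 2927 CPM in the other 8. Tmsb4x was at 2484 and 2335 CPM, under the range of 2823 to 4570 CPM in the other 8, and Cfl1 at 52.7 and 56.4 CPM, under 63.9 to 105.0 CPM. Myl12b was at 73.4 and 59.1 CPM, under 74.5 to 186.1 CPM. Myh10 went the other way in CO mouse 5, where its 353.1 CPM lay above the 75.6 to 251.6 CPM of the other 8 mice, and its 198.7 CPM in FO mouse 2 lay within that range. Myl6 and Myl12a were low in FO mouse 2 only. Myl6 was at 159.0 CPM there and 229.7 CPM in CO mouse 5, against 165.1 to 325.6 CPM in the other 8. Myl12a was at 100.9 and 114.2 CPM in these mice, against 106.3 to 401.0 CPM. What set these libraries apart, and its part in the levels, was not tested. Leaving out both mice, 0 of the 7 tested members passed the threshold, beside 72 of all 1830 genes tested in that fit.

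**Figure D4:**
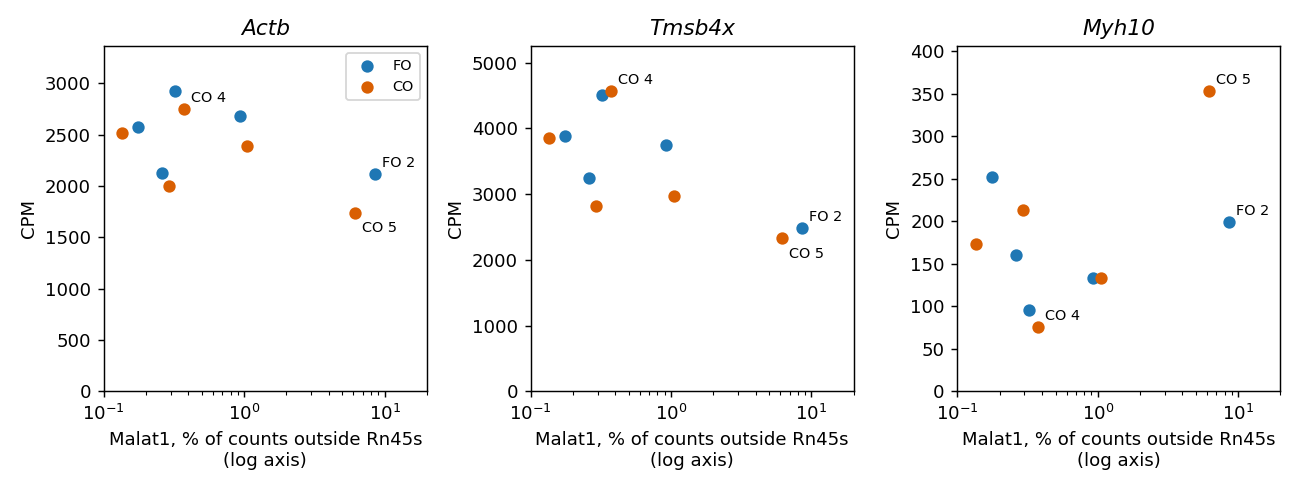
Each panel plots the CPM of Actb, Tmsb4x or Myh10 against the percent of counts outside Rn45s that fell on Malat1 (log axis), with 1 point for each FO and CO mouse. FO mouse 2 (8.53% Malat1) and CO mouse 5 (6.15%) have the lowest Tmsb4x of the 10 mice, and CO mouse 5 has the highest Myh10.

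Within the other 8 mice, the log2 CPM of the 7 members were compared pair by pair, in 21 relations that share each library's scaling. The highest coefficient was that of Actb and Tmsb4x, with a Pearson r of 0.89 (exact permutation p = 0.00365, adjusted p = 0.07, n = 8) and a Spearman coefficient of 0.88 (exact permutation p = 0.00724, adjusted p = 0.112, n = 8). Without the 2 mice farthest from the median of Actb, r was 0.87. The lowest was that of Myh10 and Myl12a, with r = -0.85 (exact permutation p = 0.00667, adjusted p = 0.07, n = 8) and a Spearman coefficient of -0.86 (exact permutation p = 0.0107, adjusted p = 0.112, n = 8), and r was -0.57 without the 2 mice farthest from the median of Myh10. No relation had an adjusted p under 0.05, and the coefficients ran from -0.85 to 0.89 with a median of 0.40. Myl12a and Myl12b, despite their shared sequence, had an r of 0.06 (exact permutation p = 0.893, adjusted p = 0.919, n = 8) and a Spearman coefficient of -0.36 (exact permutation p = 0.389, adjusted p = 0.545, n = 8), and r was -0.30 without the 2 mice farthest from the median of Myl12a.

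The genes whose log2 CPM followed the mean of the 7 members most closely over the 10 mice were Rpl18 (Pearson r = 0.97), Polr2m (0.96), Dynll2 (0.92), Eef1a1 (0.90) and Atp5e (0.90). They were picked for this likeness, so the coefficients are a description. In the 8 mice without high Malat1 the same genes had coefficients between 0.78 and 0.94. Rpl18 encodes a ribosomal protein, Eef1a1 the elongation factor that brings tRNA to the ribosome, Dynll2 a dynein light chain and Atp5e a subunit of ATP synthase. None of them had an unadjusted edgeR p-value under 0.05 between the diets.

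The wider actin machinery was described with 8 lists of 82 genes. Of these, 77 had a count, Twf1, Mkl1 and Myo10 were listed at 0 in every mouse, Diaph1 and Diaph2 were not analysed here, and 55 were tested. Of the 55 genes, 1 passed the threshold, which is 1.82% beside the 2.91% of all genes tested. The median log2 fold change was -0.05, with 24 values above and 31 below 0.

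The gene that passed was Sptbn1, a beta spectrin that ties actin into the membrane skeleton. It had 1280 ± 297 CPM in the FO group (955 to 1540) and 1880 ± 503 CPM in the CO group (1290 to 2500), and was below the CO median in 5 of 5 FO mice, with overlapping ranges. The change on the log2 scale was -0.55 (standard error 0.26, with an edgeR unadjusted p = 0.0469, adjusted p = 0.999), and a two-sided exact permutation test gave p = 0.0635 (n = 5). It lost the threshold without each of FO mice 1, 3 and 5 and CO mice 2, 4 and 5, with values from -0.60 to -0.42, and with 1 call among 55 genes the share called was below that over all genes.

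None of the other lists held a gene past the threshold in this fit. In the fit of all genes with any count, where 4.15% of genes passed, the 1 gene of these lists that passed was another. It was Myh14, a non-muscle myosin, at -0.68 (edgeR unadjusted p = 0.0342, adjusted p = 0.905). Sptbn1 did not pass there (edgeR unadjusted p = 0.072). Of the 8 tested subunits of the Arp2/3 complex, which branches actin filaments, 3 had a log2 fold change above 0, and the median was -0.13. The 7 tested genes of capping, severing and monomer binding had a median of 0.01, the 10 crosslinkers, Sptbn1 included, -0.08, and the 5 genes of adhesion and membrane links 0.08. All 4 tropomyosins, which run along filaments and gate access of myosin, were tested and had log2 fold changes of 0.27 (Tpm1), 0.43 (Tpm2), -0.06 (Tpm3) and 0.10 (Tpm4). In the pathway of SRF, a factor that turns on actin genes, Srf was at -0.33 and its cofactor Mkl2 at -0.67, and the 8 other non-muscle myosins had a median of -0.17.

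Smooth muscle actin was set beside beta actin because the study concerned airway reactivity. Acta2, on chromosome 19 from 34241090 to 34255590, had 24.2, 37.5, 12.9, 48.2 and 45.8 CPM in FO mice 1 to 5 and 26.6, 5.33, 26.3, 14.7 and 17.1 CPM in CO mice 1 to 5. In the FO group 4 of 5 mice lay above the CO median, FO mouse 3 lay below it, and the groups overlapped. Acta2 was higher in the FO group at the unadjusted threshold, by 0.99 on the log2 scale (standard error 0.37, 95% interval 0.22 to 1.75, edgeR unadjusted p = 0.0144, adjusted p = 0.999), whereas a two-sided exact permutation test of its CPM gave p = 0.103 (n = 5). With from 1 to 49 counts per mouse it is a shallow measure beside Actb. The log2 ratio of Acta2 to Actb within a mouse averaged -6.26 ± 0.77 (FO) and -6.99 ± 0.71 (CO, SD, n = 5). The difference of 0.73 (standard error 0.47, two-sided exact permutation p = 0.167, adjusted p = 0.333) was about as large as these SDs and did not pass the threshold. The ratios of Actb to Actg1 and of Myh9 to Myh10 were not formed, since Actg1 and Myh9 were at or under the floor.

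Because every cell makes these members, marker genes of the cell types in lung were summed beside them. These sums are from the fit of all genes with any count, so they are not on the scale of the CPM of single members above. The members summed to between 5300 and 7570 CPM (median 6210) in the FO group and 4560 and 8410 CPM (median 5680) in the CO group. All 12 leukocyte markers were counted, with a sum of 464 to 659 CPM (median 561) in the FO group and 207 to 607 CPM (median 328) in the CO group, and the 5 tested were all above 0 with a median log2 fold change of 0.39. Of these, 1 passed the threshold, S100a9, a calcium-binding protein of neutrophils, with 74.6 ± 52.0 CPM (FO) and 13.8 ± 5.19 CPM (CO), higher in 5 of 5 FO mice than the CO median, and a log2 fold change of 2.27 (standard error 0.48, with an edgeR adjusted p = 0.377). S100a9 was among the 0.41% of genes whose groups did not overlap, with an FO lowest of 22.9 CPM and a CO highest of 18.4 CPM (two-sided exact permutation test, p = 0.00794, n = 5). Its adjusted p depended on the fit: it was 0.0127 in DESeq2, where it was the gene that passed, and in edgeR 1.99e-05 over all genes with any count, 0.00594 without FO mouse 2 and 0.0142 without FO mouse 2 and CO mouse 5. In edgeR it was above 0.05 in each of the other alternatives that tested it, and without FO mouse 1 the log2 value was 1.65. The leukocyte markers outside the filter went both ways in the fit of all genes with any count. Ptprc (0.08), Fcer1g (0.57), Tyrobp (0.51) and S100a8 (1.62) were above 0. Of these S100a8, with from 2 to 96 counts per mouse, passed the threshold (edgeR unadjusted p = 2.1e-05, adjusted p = 0.149). Cd74 (-0.14), Cd3e (-0.20) and Cd79a (-2.19) were below 0, with only 2 counts in all for Cd3e and 2 for Cd79a.

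Like that of the leukocytes, the other marker sums overlapped between the diets. The 10 smooth muscle markers, all counted, ran from 101 to 428 CPM (median 179) in the FO group and 118 to 229 CPM (median 130) in the CO group, and Acta2 was the 1 of 3 tested that passed. The highest of these sums was that of FO mouse 2, which held 224 of the 359 counts of Myh11, smooth muscle myosin. The 13 counted of 14 cardiac markers ran from 69.8 to 278 CPM and from 25.9 to 193 CPM, with Myl2 listed at 0, the 6 platelet markers from 20.1 to 57.7 CPM and from 9.43 to 41.5 CPM, the 5 endothelial markers from 171 to 428 CPM and from 192 to 400 CPM and the 5 fibroblast markers from 206 to 270 CPM and from 187 to 271 CPM (FO and CO). Of 7 erythroid genes only Alas2 had counts, with a sum of 35.2 to 65.9 CPM (FO) and 2.1 to 75.7 CPM (CO), and the 6 others, all globin genes, were listed at 0. The part of cell makeup in the levels of the members was not tested.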

How the data were processed

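The file the authors deposited holds raw counts, with a row for each gene symbol. Single-end reads had been aligned to mm10 with STAR 2.4.0f1, sorted with SAMtools 0.1.19 and counted with HTSeq. Annotation and strand setting are not given in the sources used here, so overlapping genes and near-identical copies may share or lose reads. Total counts ranged from 229766 to 1124963 per mouse, which limits the precision of members with few counts.

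Diets were taken from the sample labels, with each mouse as 1 sample. The members and gene lists were chosen with earlier results of these data known. Counts were fitted with edgeR 4.0.16 (R 4.3.3; TMM, minimum count 10, minimum total 15, quasi-likelihood test, no covariate), over all 2438 genes left. The threshold was the study's unadjusted p of 0.05, with Benjamini-Hochberg adjustment beside it. The script was tested on simulated data. Pfn1 was taken from the fit of all 14161 genes with any count. Ratios (0.5 added to counts) and single values were compared by exact permutation in Python 3.11.15, where 5 mice against 5 allow no two-sided p under 0.0079. Genes named were the members, list genes past the threshold (at most 4 per list), Acta2 and the 5 genes most like the members, with whole lists of up to 4 tested genes and widely expressed genes named after their values were seen. Transcript sequences came from GENCODE M21. The median of 1 of the 8 pathway lists is not reported here. Alternatives were DESeq2 1.42.0, other size factors and filters, fits without Rn45s, a replicate block and leaving mice out.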

Additional observations from a re-analysis of the deposited data

Results flagged for a closer look

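The level of Myl12a in CO mouse 4, 401 CPM, stood apart from the 106 to 160 CPM of the other 4 CO mice. Its gap to the nearest of them was 0.818 of the whole range of the group, above the critical value of 0.71 of Dixon's test at 5 samples. It was the 1 such value among 20 groups tested, where chance gives about 1.0. CO mouse 4 also had the lowest share of Rn45s (21.8%) and the highest share of member counts (2.85% of counts outside Rn45s). The part of the library in this value was not tested.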

How the results depend on the processing

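None of the 145 alternative values of single members had an unadjusted p under 0.05 (smallest 0.063), and 12 turned direction. Scaling by library size alone, Rn45s included, moved the median of all genes to -0.55 and that of the members from -0.11 to -0.74, with Actb at -0.52 and Tmsb4x at -0.62. With all genes with any count, Cfl1 was at 0.01 and 10 marker genes in place of 2 were called higher. These were 3 of 10 smooth muscle, 3 of 13 cardiac, 2 of 12 leukocyte and 1 of 6 platelet markers, and Alas2. In that fit 365 of 14161 genes were called higher, beside 41 of 2438 genes in the fit over the genes past the filter. Without FO mouse 2 and CO mouse 5, Myh10 was at 0.14 and the log2 ratio of Myl12a to Myl12b differed by 0.01. Leaving out each mouse in turn gave values for the median of the members from -0.26 to 0.17 (0.17 without CO mouse 4), Myh10 from -0.41 to 0.22, Myl12a from -0.40 to 0.29, Myl12b from -0.31 to 0.14, Cfl1 from -0.13 to 0.17, and the ratio difference from -0.42 to 0.12. Single values were Myh10 at 0.22 without CO mouse 5, Myl12a at 0.29, Myl12b at 0.14 and Cfl1 at 0.17 without CO mouse 4, Myl12b at 0.05 and Cfl1 at 0.12 without FO mouse 2, and both at 0.01 without CO mouse 1. The ratio difference was 0.12 without FO mouse 3, 0.05 without CO mouse 3, 0.06 without CO mouse 4 and 0.02 without CO mouse 5. The cause of these turns was not tested. Acta2 no longer passed with library size alone (0.48) and passed in 15 other alternatives. It was left out by the filter, and so not tested, when 10 counts in every mouse were required. The same held without FO mouse 2, without FO mouse 4 and without both FO mouse 2 and CO mouse 5. Sptbn1 no longer passed in 11 of 20 alternatives.

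With the replicate number as a block, 55 of 2438 genes had an unadjusted p under 0.05 and 0 members, with Actb at 0.13, Myl12a at -0.12 and Myh10 at -0.05. The correlation of same-numbered mice ranged from -0.41 to 0.03, with a mean of -0.12 beside 0.03 for the other pairs. Such correlations cannot tell whether the numbers pair the mice. The number of genes called, 71, was 36 with library size alone, 154 without FO mouse 2 and 587 with any count. A fit scaled by library size after leaving out Rn45s, chosen after seeing the data, called 0 members and 95 of 3484 genes. Depth limits Pfn1, Cfl1 and Acta2, whose counts fell to 12 or fewer in some mouse.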
